A study of Mus musculus with 6 samples.

Results

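The genes described here encode the factors that start and extend protein synthesis in the cytoplasm, with their direct binding partners and modifying enzymes. They were chosen by name, as the genes of the deposited mouse liver table whose symbol begins with Eif1 to Eif6, Eef1 or Eef2. Of 25230 genes in the table, 70 matched. The 4 Eif2ak kinases and Eif2s3y were set aside by the same rule, which left 65 genes. Of these, 55 had enough reads to be tested, 5 had too few and 5 had no read in any library. The unread genes are Eif3j1, Eif3j2, Eif4e1b, the readthrough gene Eef1akmt4-ece2 and Eif2c5, a non-coding RNA in RefSeq that only the symbol brings in. The rule reads gene symbols and not values, but it was set with earlier results of these data known.

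The study asked how early liver lesions that pile up glycogen differ from the normal liver beside them. It holds 6 RNA libraries, 3 from glycogen-rich regions and 3 from normal adjacent liver. Both groups come from male C57BL/6 mice given the liver carcinogen diethylnitrosamine (DEN) by intraperitoneal injection, at 25 mg per kg body weight and 14 days of age. The normal adjacent tissue is therefore also carcinogen-treated, and untreated liver was not analysed here. Both groups carry an age label of 7 months. Regions were cut from formalin-fixed, paraffin-embedded serial sections with a tissue dissection instrument (AVENIO Millisect). The lesion regions bear the title Small_tumor and are staged in the labels by their stacked glycogen, and the sources used here give no other criterion for choosing them. Which mouse each region came from is not labelled. P-values therefore speak of the spread among these 6 samples and would be too small where a mouse gave more than 1 region of a group.

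Initiation begins when the factor eIF2, charged with GTP, brings the initiator transfer RNA to the small ribosomal subunit, where eIF1, eIF1A, eIF3 and eIF5 also bind. The cap at the start of the messenger RNA is held by eIF4E, the scaffold eIF4G joins it to the helicase eIF4A, and small eIF4E-binding proteins block that bridge until the kinase mTOR phosphorylates them. After the subunits join, eEF1 delivers each aminoacyl transfer RNA and eEF2 moves the ribosome along. Liver makes large amounts of secreted protein, and translation is a known point of control in liver growth and liver tumours.

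Normal libraries held 6352898 to 6542997 counts each, and lesion libraries 7294716 to 7412833. The 65 factors took between 0.863% and 0.923% of a library. In the member genes alone, the first principal component held 59.8% of the variance and separated the groups, at -1.13 to -0.86 in the normal and 0.74 to 1.24 in the lesion libraries. Lesion 3 lay nearest to the normal libraries on that axis. Albumin mRNA made up 3.37% to 3.72% of the reads of normal libraries but 7.25% to 8.84% of those of lesions, so the libraries differ in makeup. Levels are given as CPM, counts brought to a common library size with a trimmed-mean (TMM) scaling. On library size alone the median of all tested genes shifted to -0.14 on the log2 scale, and changes below are relative to the TMM scale. Hepatocyte markers were present as labelled, with 2 of 7 tested genes higher (Alb and Apoa1) and 2 lower (Ttr and Cyp2e1). Their median log2 fold change was 0.0079. Their summed level was 45740 to 49413 CPM in normal and 91079 to 112380 CPM in lesion regions. Most of that sum was albumin, at a mean of 34156 CPM in normal and 82269 CPM in lesion regions.

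Some markers of other cell types differed between the groups too. All 8 Kupffer cell and macrophage markers were lower, summing to 835 to 884 CPM in normal and 519 to 560 CPM in lesion regions. All 3 tested biliary markers were higher (47.7 to 49.7 CPM against 156 to 200 CPM over the 7 genes of the list), and so were all 7 tested proliferation markers (32.4 to 35.2 against 76.5 to 137 CPM over 8 genes). Most of the biliary sum in lesions was Spp1, with means of 17.8 CPM in normal and 123 CPM in lesion regions. The biliary markers Krt7, Krt19, Epcam and Cftr were not tested, at 0 to 9 reads a library. Of 8 stellate and fibroblast markers, 3 were higher and 1 lower, with sums of 337 to 345 and 376 to 429 CPM. Endothelial markers (2 of 8 higher, 0 lower) summed to 643 to 661 and 657 to 683 CPM, and lymphocyte markers (1 of 3 tested lower) to 46.3 to 48.5 and 36.1 to 40.1 CPM. The lower lymphocyte marker was Ptprc, which held most of that sum, with means of 37.5 and 27.2 CPM. The other tested lymphocyte markers, Cd3e and Cd8a, did not pass, with log2 values of 0.24 and -0.15. Every listed gene of the table had a read in some library. The part of these cell types in the factor values was not tested, and in bulk tissue fewer cells of a type and less RNA per cell cannot be told apart.

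Of the 55 tested factors, 12 were higher and 5 lower in the lesions at an adjusted p under 0.05 (edgeR's quasi-likelihood test, two-sided, with Benjamini-Hochberg adjustment over all 12506 tested genes). That is 21.8% higher and 9.09% lower, against 18.7% higher and 18.4% lower among all tested genes. The other 38 factors did not pass. In either direction 30.9% of the factors passed against 37.1% of all tested genes, and against 47.6% of the 4353 genes whose level lay in the factors' middle range of 21.5 to 120 CPM. Of those 4353 genes, 22.5% were higher and 25.2% lower. Lesion and normal libraries did not overlap for 26 factors (47.3%, against 48.2% of all tested genes and 57.6% of those 4353 genes). Of these, 19 lay above (24.2% of all tested genes did) and 7 below (24.0%). The 17 that passed are among them.

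The sizes were small. Log2 fold changes ran from -0.67 (Eif4e3) to 0.66 (Eif6), with a median of 0.10 against 0.0031 over all tested genes and a median absolute size of 0.18 against 0.28. Over the genes in the factors' middle range of level those medians were -0.02 and 0.23. A change of at least 0.5 on the log2 scale was seen in 4 factors, where 26.0% of all tested genes reached that size, and none reached 1, where 7.26% of all tested genes did. The summed level of the factors, on the TMM scale, ran from 8438 to 8770 CPM in the normal and from 9248 to 9351 CPM in the lesion libraries. Their share of the unscaled counts overlapped, at 0.879% to 0.923% in normal and 0.863% to 0.901% in lesion libraries. On library size alone the factors' median was -0.04, with 9 higher and 13 lower. Without lesion 3 the counts were 18 higher and 10 lower. No factor that passed changed direction under any of the 20 alternative settings, and 12 of the 17 passed under every setting.

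**Figure D1:**
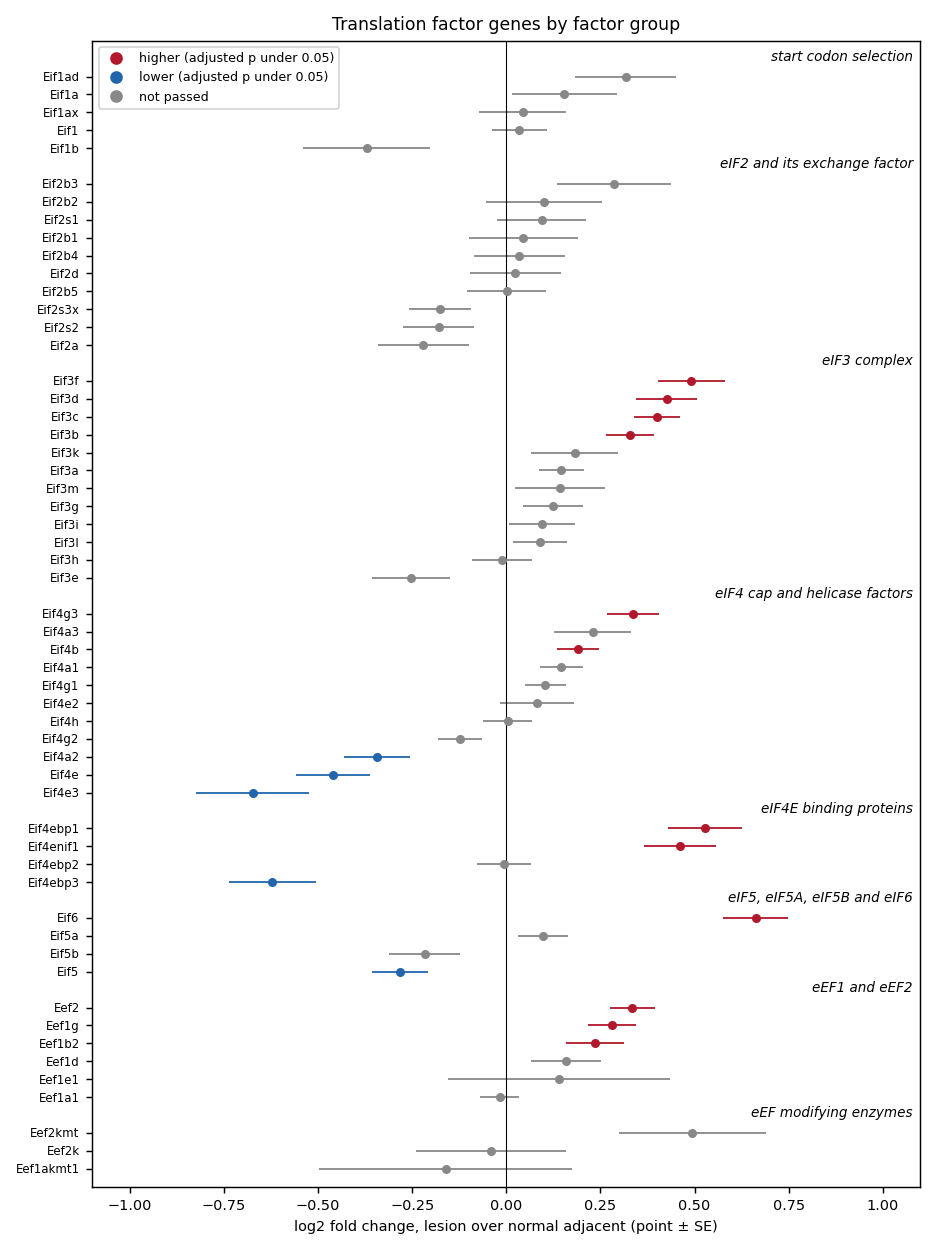
Log2 fold change of each tested factor (lesion over normal adjacent, point ± SE from edgeR, 3 libraries a group), grouped by its place in translation. Higher factors are 4 of 12 in eIF3, 3 of 6 in elongation, 2 of 4 among eIF4E-binding proteins and 2 of 11 in eIF4. The eIF5 to eIF6 group has 1 of 4, and 18.7% of all tested genes were higher. The start codon and eIF2 groups hold 0 that passed, and the changes span -0.67 to 0.66.

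The factors that read the start codon did not move detectably. None of the 5 (Eif1, Eif1a, Eif1ad, Eif1ax and Eif1b) passed, their median being 0.04 on the log2 scale, or -0.10 on library size alone. It was 0.136 without lesion 2, 0.0706 without normal 1, 0.0737 without normal 3, 0.0239 without normal 2 and -0.00194 without lesion 3. Eif1, the scanning factor that guards start codon choice and the most abundant of the group at 122.4 FPKM (fragments per kilobase of gene, scaled to library size) in normal liver, stood at 155, 147 and 164 CPM in normal regions 1 to 3 and at 158, 144 and 176 CPM in lesions 1 to 3. The groups overlapped throughout that range (log2 0.03, SE 0.0732, edgeR adjusted p = 0.743). Its close copy Eif1b had a log2 value of -0.37 with an adjusted p of 0.0913 in edgeR, and 0.0257 when lesion 3 was left out. Eif1ad, an eIF1A-like domain protein, had 0.32 with 0.0700, and 0.0178 without lesion 3.

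None of the 10 genes of eIF2, its exchange factor eIF2B and the related Eif2a and Eif2d passed either. The 3 subunits of eIF2 were measured at 6.29 FPKM (Eif2s1), 18.02 FPKM (Eif2s2) and 19.0 FPKM (Eif2s3x) in normal liver. Eif2s1 encodes the alpha subunit, whose phosphorylation shuts down general initiation, and its log2 value was 0.09. Eif2s3x encodes the gamma subunit that binds GTP and the initiator transfer RNA. It stood at 72.4, 64.8 and 68.4 CPM in normal regions and 56.3, 58.8 and 67.0 CPM in lesions, with lesion 3 inside the normal range (log2 -0.18, SE 0.0825, edgeR adjusted p = 0.103). Without lesion 3, Eif2s3x and the beta subunit gene Eif2s2 passed as lower (adjusted p = 0.00524 and 0.0132), as they did on library size alone, where Eif2a passed too (0.0035, 0.00876 and 0.0247 for Eif2s3x, Eif2s2 and Eif2a). The 5 eIF2B subunit genes, Eif2b1 to Eif2b5, had log2 values from 0.0013 to 0.29. The group's median was 0.03, or -0.11 on library size alone, -0.05 without normal 1, 0.07 without lesion 2 and -0.02 without lesion 3.

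The eIF3 complex, which coats the small subunit and holds the other factors and the mRNA on it, had 4 higher genes of 12 tested (33.3%, against 18.7% of all tested genes). The elongation factors had 3 of 6 and the eIF4E-binding proteins 2 of 4. The other 8 subunit genes did not pass, and the complex had a median of 0.14 on the log2 scale, or 0.01 on library size alone. Leaving out normal 1 or normal 2 moved that median to 0.10 or 0.21. The 4 that rose, Eif3b, Eif3c, Eif3d and Eif3f, passed under every alternative setting. A 30-base stretch near each annotated start of transcription is shown so that its letters can be read against the values. The sequences are the RefSeq reference of GRCm38.p6, written 5′ to 3′. Capitals mark, at full length, the longest unbroken run of C and T that reaches within 20 bases of the start. Each stretch begins 8 bases before that run, not at the start itself. Runs were looked for because mRNAs that open on one are a known class controlled through mTOR.
Eif3f: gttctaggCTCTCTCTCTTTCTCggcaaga
Eif3c: cgtgcctgTCTCacctgctcagagggactc
Eif3b: cgcggtgaCTTCTgggagtcggaagcaggg
Eif3d: tagggccaTTTacgacagcgctggtcgccg
The stretches lie at chr7:108934403-108934432 on the plus strand (Eif3f), chr7:126566361-126566390 on the minus strand (Eif3c), chr5:140419299-140419328 on the plus strand (Eif3b) and chr15:77970806-77970835 on the minus strand (Eif3d). Counting the annotated start base as 0, the run of Eif3f has 15 bases and spans the start, from -4 to 10. That of Eif3b has 5 bases and lies just inside the transcript, from 2 to 6. The runs of Eif3c (4 bases, -16 to -13) and Eif3d (3 bases, -3 to -1) lie before the start and so outside the annotated transcript.

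Eif3f (chromosome 7, 108934415 to 108941942), a subunit of the complex's outer ring of paired domains, showed 49.4, 61.7 and 61.7 CPM in normal regions 1 to 3 and 75.1, 81.5 and 86.6 CPM in lesions 1 to 3. Its lowest lesion lay well above its highest normal region (log2 0.49, SE 0.0893, edgeR adjusted p = 0.000243). Eif3d (chromosome 15, 77958998 to 77970824), the subunit that can itself hold the cap of certain mRNAs, went from 51.5, 59.0 and 51.4 CPM to 74.4, 74.6 and 68.6 CPM (log2 0.43, SE 0.0804, edgeR adjusted p = 0.000325). Eif3c (chromosome 7, 126546911 to 126566366), a core subunit that contacts eIF1 and eIF5, went from 142, 146 and 144 CPM to 194, 196 and 180 CPM. The spread within each group was far narrower than the gap (log2 0.40, SE 0.0612, edgeR adjusted p = 3.78e-05). Eif3b (chromosome 5, 140419305 to 140443358), the scaffold of the other module of the complex, held 97.0, 99.6 and 96.5 CPM in normal regions and 122, 122 and 124 CPM in lesions (log2 0.33, SE 0.0633, edgeR adjusted p = 0.000386).

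The remaining subunits of eIF3 did not pass. Eif3a, the largest subunit and the partner of Eif3b, stood at 216, 213 and 207 CPM and at 239, 223 and 240 CPM, without overlap (log2 0.15, edgeR adjusted p = 0.0577). It passed without lesion 2, without lesion 3 and under the stricter count filter, and had 0.0072 on library size alone (adjusted p = 0.934). Eif3e had the opposite sign at -0.25 (edgeR adjusted p = 0.0615), with 36.7, 36.0 and 34.4 CPM in normal regions and 28.9, 26.7 and 34.2 CPM in lesions. It passed as lower without lesion 3, at -0.36 and an adjusted p of 0.00273, on library size alone and with no count filter. The others, Eif3g, Eif3h, Eif3i, Eif3k, Eif3l and Eif3m, had log2 values from -0.01 to 0.18, of which Eif3k passed without normal 2. Among them only Eif3g had groups that did not overlap, with all lesions above all normal regions. Per length, the tested subunits lay close together in normal liver, from 20.2 FPKM (Eif3m) to 49.6 FPKM (Eif3c). In the lesions they ran from 19.3 FPKM (Eif3e) to 65.3 FPKM (Eif3c). Eif3j1 and Eif3j2, near-identical copies of the loosely bound subunit, had no reads in any library, and how reads matching both copies were counted is not stated. Summed over the complex, the level was 877 ± 29.6 CPM (SD, n = 3) in normal and 1025 ± 5.13 CPM (SD, n = 3) in lesion regions.

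**Figure D2:**
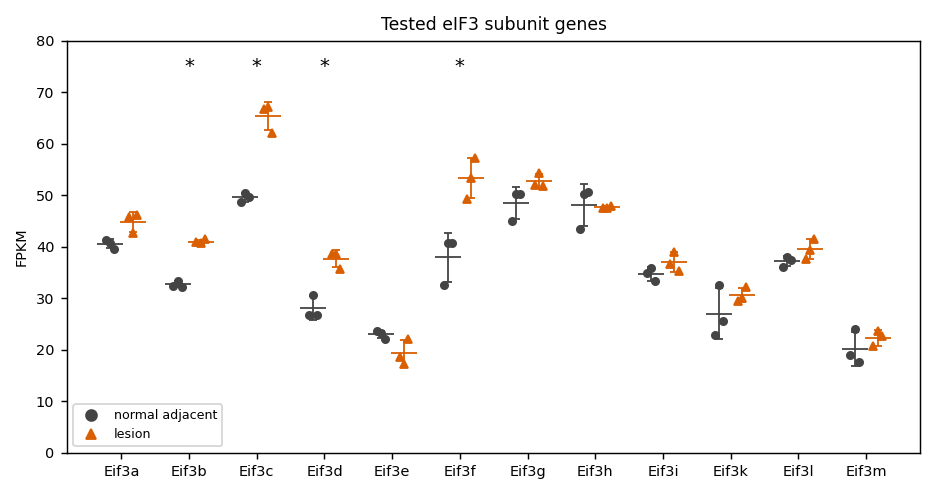
FPKM of each tested eIF3 subunit gene in every library (3 normal adjacent, 3 lesion). Lesion points of Eif3a, Eif3b, Eif3c, Eif3d, Eif3f and Eif3g lie above all normal points, and those of Eif3e lie below them. Of these genes, Eif3b, Eif3c, Eif3d and Eif3f passed.

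The eIF4 factors that unwind and bridge the mRNA moved in both directions. Of the 11 tested, 6 did not pass, 2 rose (18.2%, against 18.7% of all tested genes) and 3 fell (27.3%, against 18.4%). The group's median was 0.08 on the log2 scale, or -0.06 on library size alone and 0.02 to 0.13 with each library left out. The scaffold Eif4g1, the most abundant of the group at 129.3 FPKM in normal liver, stood at 712, 683 and 732 CPM and at 771, 786 and 729 CPM. Lesion 3 lay within the normal range, and Eif4g1 did not pass (log2 0.10, SE 0.0551, edgeR adjusted p = 0.152; 0.00502 without lesion 3).

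Eif4g3 (chromosome 4, 137991779 to 138207086), a second full-length scaffold, rose from 147, 135 and 143 CPM to 184, 189 and 163 CPM (log2 0.34, SE 0.0680, edgeR adjusted p = 0.000621). Its share of the FPKM of the 3 scaffold genes was 8.31 ± 0.183% in normal and 9.98 ± 0.384% in lesion regions (SD, n = 3). The share of Eif4g2, the scaffold-like protein that lacks the site for eIF4E, was 25.8 ± 0.739% and 22.6 ± 0.865% (SD, n = 3). Both pairs of shares were without overlap (exact two-sided permutation test, p = 0.1, the smallest that 3 against 3 libraries can give).

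Of the helicase genes Eif4a2 passed. Eif4a2 (chromosome 16, 23107468 to 23114132) fell from 112, 96.8 and 98.7 CPM to 77.4, 72.8 and 92.2 CPM (log2 -0.34, SE 0.0874, edgeR adjusted p = 0.00492). Lesion 3 was the highest lesion and lay just under the lowest normal region. The call was lost with limma on unfiltered log2 FPKM (adjusted p = 0.0617) and with the closest libraries summed (0.0533). Eif4a1, the major helicase of the cap complex, stood at 195, 192 and 194 CPM against 213, 213 and 218 CPM. It did not pass (log2 0.15, SE 0.0570, edgeR adjusted p = 0.0511), though its groups did not overlap, and it passed under 8 of the 20 alternatives. On library size alone its log2 value was 0.0068 (adjusted p = 0.936). Eif4a2 made up 23.7 ± 1.34% of the FPKM of the pair in normal and 18.1 ± 1.66% in lesion regions (SD, n = 3), without overlap (exact two-sided permutation test, p = 0.1). Small nucleolar RNA genes lie within Eif4a1 and Eif4a2, and the annotated span of Eif4a2 shares 185 bases with Rfc4. Reads of such neighbours cannot be told apart from the factor's own, since neither the counting tool nor its use of strand is stated.

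Eif4b (chromosome 15, 102073773 to 102097173), which boosts the helicase, was higher (log2 0.19, SE 0.0568, edgeR adjusted p = 0.0126). It held 269, 270 and 269 CPM in normal regions and 308, 318 and 295 CPM in lesions. The call was lost without normal 2, normal 3 or lesion 2 (adjusted p = 0.0587, 0.0558 and 0.0606), with the closest libraries summed (0.143) and on library size alone (0.516). Eif4h, a related helper, had a log2 value of 0.0037, and Eif4a3, the helicase of the exon junction complex, had 0.23 (edgeR adjusted p = 0.0870).

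Of the 3 tested cap-binding genes, 2 fell, Eif4e and Eif4e3, and Eif4e2 did not pass. Among all tested genes 18.4% were lower. Eif4e (chromosome 3, 138526191 to 138559696), the limiting cap-binding factor and a known oncogene in mice, fell from 33.3, 34.1 and 37.5 CPM to 24.1, 26.2 and 25.9 CPM (log2 -0.46, SE 0.0992, edgeR adjusted p = 0.00110). Eif4e3 (chromosome 6, 99621879 to 99692873), a relative that binds the cap in an unusual way, fell from 13.6, 12.9 and 14.5 CPM to 8.40, 8.26 and 9.07 CPM (log2 -0.67, SE 0.150, edgeR adjusted p = 0.00150). In both genes all lesions lay below all normal regions. Eif4e2, the cap-binding protein linked to translational repression and the most abundant of the 3 per length, at 8.62 FPKM in normal and 9.11 FPKM in lesion regions, had a log2 value of 0.08 (edgeR adjusted p = 0.548). Its share of the FPKM of the 3 genes was nonetheless 41.5 ± 1.84% in normal and 52.2 ± 4.28% in lesion regions (SD, n = 3), without overlap (exact two-sided permutation test, p = 0.1), as the other members' levels were lower. Eif4e1b, the oocyte form, had no reads.

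The eIF4E-binding proteins split by gene. Eif4ebp1 (chromosome 8, 27260327 to 27275656), the best known mTOR-controlled blocker of eIF4E, rose from 32.0, 31.9 and 31.8 CPM to 39.9, 49.0 and 49.2 CPM. The normal regions were almost identical and lesion 1 was the lowest of the lesions (log2 0.53, SE 0.0972, edgeR adjusted p = 0.000256). Eif4ebp3, a sister gene on chromosome 18, fell from 23.0, 23.5 and 23.2 CPM to 14.5, 15.3 and 15.5 CPM (log2 -0.62, SE 0.115, edgeR adjusted p = 0.000260). Eif4ebp2, the most abundant of the family at 70.4 FPKM in normal liver, overlapped between the groups, with 119, 124 and 137 CPM and 121, 122 and 136 CPM (log2 -0.01, SE 0.0715, edgeR adjusted p = 0.958). Eif4enif1 (chromosome 11, 3202343 to 3244588), the transporter that carries eIF4E into the nucleus and represses its mRNAs, rose from 38.1, 30.5 and 31.2 CPM to 46.6, 46.5 and 44.3 CPM (log2 0.46, SE 0.0967, edgeR adjusted p = 0.000871). Its annotated span shares 1005 bases with Sfi1.

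Set against each other per length, the messages of Eif4ebp1 and Eif4e moved apart. Both genes had already passed in opposite directions, so their ratio restates those changes and adds no separate support. The ratio of Eif4ebp1 to Eif4e FPKM was 5.02, 4.88 and 4.43 in normal regions and 8.64, 9.76 and 9.90 in lesions, or 4.78 ± 0.312 and 9.43 ± 0.690 (SD, n = 3). For Eif4ebp2, the most abundant of the family, the ratio to Eif4e was 10.4 ± 0.113 in normal and 14.2 ± 0.849 in lesion regions (SD, n = 3). The ratio of Eif4ebp1 to Eif4ebp3 was 1.61 ± 0.0230 and 3.57 ± 0.303 (SD, n = 3). By contrast Eif4ebp3 to Eif4e stood at 2.96 ± 0.180 and 2.64 ± 0.0481, as both fell. Within the family Eif4ebp1 took 26.3 ± 1.18% and 35.8 ± 2.22% of the FPKM, and Eif4ebp3 took 16.3 ± 0.642% and 10.1 ± 0.386% (SD, n = 3). These are mRNA ratios, and the phosphorylation that decides whether the proteins bind was not measured.

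**Figure D3:**
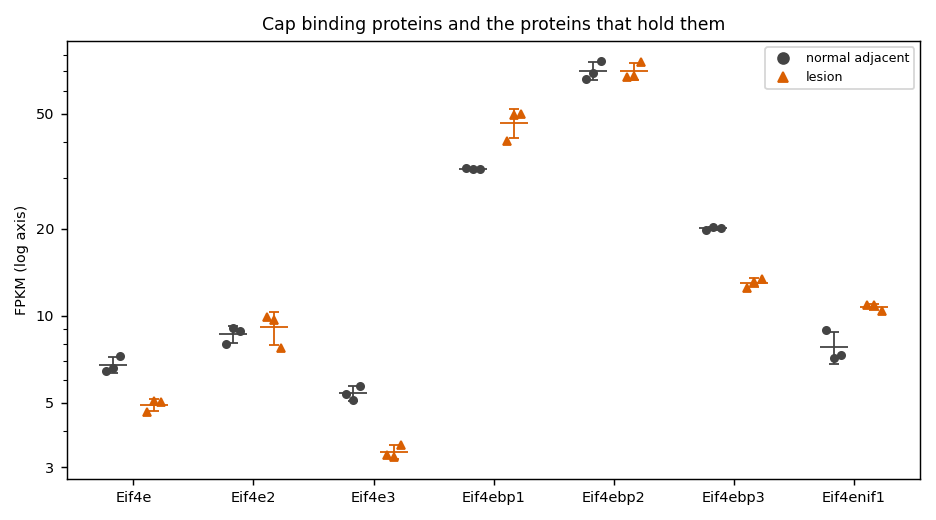
FPKM on a log axis of the cap-binding genes and of the genes of their binding proteins in each library (3 normal adjacent, 3 lesion). Lesion points are below all normal points for Eif4e, Eif4e3 and Eif4ebp3 and above them for Eif4ebp1 and Eif4enif1.

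The late initiation factors also split. Eif6 (chromosome 2, 155819837 to 155826925), which keeps the large ribosomal subunit from joining too early and takes part in making it, had the largest rise of all the factors. Its levels of 32.5, 32.3 and 35.0 CPM in normal regions became 49.7, 54.7 and 53.6 CPM in lesions (log2 0.66, SE 0.0864, edgeR adjusted p = 5.66e-06). All lesions stood far above all normal regions, and Eif6 passed under every alternative setting. Eif5 (chromosome 12, 111538101 to 111546753), which triggers GTP hydrolysis on eIF2 at the start codon, fell from 146, 148 and 145 CPM to 128, 105 and 128 CPM (log2 -0.28, SE 0.0735, edgeR adjusted p = 0.00506). Lesion 2 was its lowest library, and the call was lost with limma on unfiltered log2 FPKM (adjusted p = 0.0558). A small nucleolar RNA gene, Snora28, lies inside Eif5.

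Eif5a, the hypusine-carrying factor that helps ribosomes through difficult stretches, stood at 146, 140 and 157 CPM and at 166, 152 and 156 CPM, with overlap (log2 0.10, SE 0.0658, edgeR adjusted p = 0.261). It supplied 99.9% of the FPKM of the eIF5A pair in normal liver, its copy Eif5a2 having 1 to 8 reads a library. Eif5b, the GTPase of subunit joining, had a log2 value of -0.22 and did not pass (edgeR adjusted p = 0.0820), but passed as lower without lesion 3 (0.00024), on library size alone and with no count filter.

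**Figure D4:**
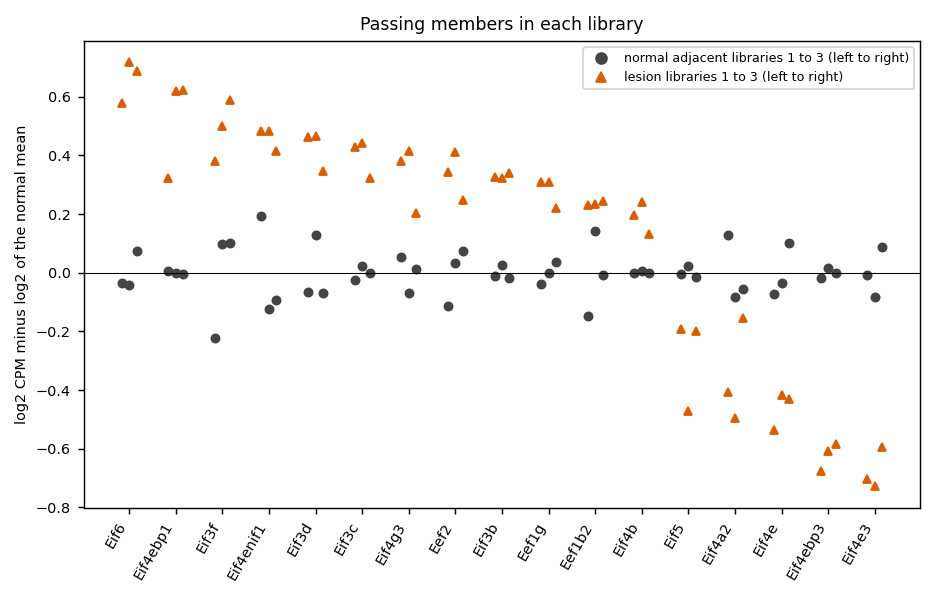
Level of each of the 17 passing factors in each library, as log2 CPM minus the log2 of its normal mean (left to right, normal adjacent libraries 1 to 3 and lesion libraries 1 to 3). The 12 higher and 5 lower factors separate without overlap.

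The elongation factors hold the 2 most abundant messages of the set, Eef1a1 and Eef2. Of the 6 tested 3 rose (50%, against 18.7% of all tested genes), and the other 3 did not pass. Their median was 0.20 on the log2 scale, or 0.06 on library size alone. Eef2 (chromosome 10, 81176631 to 81182509), the translocase, rose from 1409, 1562 and 1604.5 CPM to 1934, 2028 and 1809 CPM (log2 0.34, SE 0.0600, edgeR adjusted p = 0.000195). Eef1a1 (chromosome 9, 78478453 to 78481724), which delivers aminoacyl transfer RNAs and is the most abundant factor message at 1571 FPKM in normal and 1550.0 FPKM in lesion regions, did not move with it. Its levels of 2759, 2908.5 and 2833.5 CPM in normal regions and 2699, 2761 and 2936 CPM in lesions overlapped (log2 -0.02, SE 0.0526, edgeR adjusted p = 0.817). On library size alone Eef1a1 passed as lower, at -0.16 (adjusted p = 0.0187). Near-identical copies of Eef1a1 elsewhere in the genome make its count uncertain. Both messages are classic members of the class that opens on a pyrimidine run, and letters near their annotated starts are shown for that reason, in the same notation as above.
Eef2: gtcagcggTCTCTTCCgccgcagccgccgc
Eef1a1: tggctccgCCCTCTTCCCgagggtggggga
The stretches lie at chr10:81176637-81176666 on the plus strand (Eef2) and chr9:78481708-78481737 on the minus strand (Eef1a1). The run of Eef2 has 8 bases and lies inside the annotated transcript, from 14 to 21. That of Eef1a1 has 10 bases and spans the annotated start, from -5 to 4. Whether the mRNAs begin at these annotated starts was not tested. The capitals here and above are therefore not shown to be the run an mRNA opens on.

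Of the 3 genes of the complex that recharges eEF1A with GTP, 2 were higher (18.7% of all tested genes were). Eef1g (chromosome 19, 8967041 to 8978180), its structural subunit, rose from 105, 107 and 110.1 CPM to 133, 133 and 125 CPM (log2 0.28, SE 0.0642, edgeR adjusted p = 0.00187), and lost its call on library size alone (0.0995). Eef1b2 (chromosome 1, 63176831 to 63180486), the exchange subunit, stood at 63.8, 77.8 and 70.2 CPM against 82.9, 83.0 and 83.6 CPM (log2 0.24, SE 0.0779, edgeR adjusted p = 0.0225). The call of Eef1b2 was lost without normal 1, normal 3 or lesion 2 (adjusted p = 0.147, 0.0754 and 0.0508) and in 7 further alternatives, and the gene did not pass in the authors' deposited table. The other 11 higher and 5 lower factors also passed in the authors' deposited table, in the same direction. Eef1d, the second exchange subunit, had a log2 value of 0.16 and did not pass (edgeR adjusted p = 0.194; 0.0159 without lesion 3). Eef1e1, a scaffold-associated relative, had 0.14 (edgeR adjusted p = 0.744). Eef1a2, the muscle and nerve form, had 0 to 2 reads a library. Over the 7 elongation factors the summed level was 4589 ± 176 CPM in normal and 4994 ± 79.1 CPM in lesion regions (SD, n = 3).

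Of the enzymes that modify elongation factors none of the 3 tested passed. Eef2k, the kinase that halts eEF2, had 19.0, 23.5 and 20.5 CPM and 24.2, 23.5 and 13.5 CPM, with lesion 3 the lowest library of all (log2 -0.04, SE 0.199, edgeR adjusted p = 0.897). Eef2kmt, a methyltransferase of eEF2, stood at 5.44, 7.78 and 5.81 CPM and at 10.3, 8.68 and 7.90 CPM without overlap, and just missed the threshold (log2 0.49, SE 0.195, edgeR adjusted p = 0.0534). It passed without normal 2, without lesion 3 and under the stricter count filter. Eef1akmt1 had a log2 value of -0.16 (edgeR adjusted p = 0.742). The methyltransferases Eef1akmt2, Eef1akmt3 and Eef1akmt4 were under the count filter, at 7 to 18, 0 to 4 and 5 to 10 reads a library.

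Sequence around the start was read for all factors the RefSeq start table of GRCm38.p6 lists, 49 genes with 63 starts. Runs of at least 8 C or T letters were counted, at full length, where any part lay within 20 bases of the start. Such a run stood at 17 of the 63 starts (27.0%), against 21.2% of all 32851 starts and 20.6% of the 12710 starts of tested genes. Counted by gene, since several starts of a gene can share a run, it stood at a start of 3 of 9 higher factors (Eef2, Eif3f and Eif4enif1), 1 of 3 lower factors (Eif4e), 8 of 30 that did not pass and 3 of 7 that were not tested. The runs of Eef2 (14 to 21) and Eif4e (-26 to -14) lie partly more than 20 bases from the start. Runs of 21 bases at Eif2b5 and 16 bases at Eif2s3x are longer than that of any higher factor. Neither gene passed, and the stretch of Eif2s3x is shown.
Eif2s3x: gccgagcaTTTTCCTTTTCTCTCCgagcaa
That stretch lies at chrX:94212635-94212664 on the minus strand.

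Letters that known growth and stress regulators prefer were looked for, on both strands, in the 250 bases before to 50 bases after each start. CACGTG, the E-box that MYC-family factors bind and a palindrome, was found at 25.4% of the factor starts, against 7.15% of all starts and 9.80% of those of tested genes. CCGGAAGT, a match for ETS-family factors, was found at 15.9%, against 3.89% and 7.69%. TGATGNAA, a match for the stress factor ATF4, was found at 3.17%, against 3.97% and 2.31%. Matches were counted whether or not they overlapped another match or a C and T run, and a match is a description of the letters, not of binding. CACGTG stood at 2 of 13 starts of higher genes, 1 of 4 of lower genes, 10 of 39 of genes that did not pass and 3 of 7 of genes that were not tested. The 250 bases before the start are shown for 1 start of each of Eef2, Eif3f and Eif4e, with CACGTG in capitals, because these are the factors that passed and hold it, and they moved in different directions.
Eef2: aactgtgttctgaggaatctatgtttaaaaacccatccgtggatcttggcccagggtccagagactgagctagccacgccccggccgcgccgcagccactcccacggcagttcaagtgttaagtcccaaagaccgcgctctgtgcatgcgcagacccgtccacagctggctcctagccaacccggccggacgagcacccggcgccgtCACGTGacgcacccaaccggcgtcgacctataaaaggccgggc
Eif3f: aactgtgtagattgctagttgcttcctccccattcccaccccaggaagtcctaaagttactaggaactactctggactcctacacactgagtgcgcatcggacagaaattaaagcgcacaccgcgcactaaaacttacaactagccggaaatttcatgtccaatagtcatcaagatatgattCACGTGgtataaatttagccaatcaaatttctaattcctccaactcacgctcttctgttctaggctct
Eif4e: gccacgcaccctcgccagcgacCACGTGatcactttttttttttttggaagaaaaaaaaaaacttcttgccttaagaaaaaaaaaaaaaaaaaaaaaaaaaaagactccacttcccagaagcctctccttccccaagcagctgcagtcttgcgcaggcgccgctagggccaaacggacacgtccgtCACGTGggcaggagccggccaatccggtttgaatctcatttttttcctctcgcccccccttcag
They lie on the plus strand at chr10:81176381-81176630 (Eef2), chr7:108934165-108934414 (Eif3f) and chr3:138527018-138527267 (Eif4e). Counted from the start base, the match begins at -43 in Eef2, at -68 in Eif3f, and at -228 and -64 in Eif4e, whose other listed start has none. Starts of Eif6, Eif4ebp1, Eef1g, Eif4e3 and Eif4ebp3 were not analysed here.

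The rest of the translation machinery was read from lists of the regulators and partners of these factors. The counts below are to be read against 18.7% higher and 18.4% lower among all tested genes, and with 5 to 10 genes a list nothing is read from them about a list as a whole. Among 8 eIF2 kinases and phosphatase genes, 2 were higher and 2 lower. Eif2ak4, the kinase that senses missing amino acids, rose from 17.99, 17.2 and 20.9 CPM to 29.9, 26.0 and 31.0 CPM (log2 0.63, SE 0.117, edgeR adjusted p = 0.000265). Eif2ak3, the kinase of the endoplasmic reticulum, rose by 0.40, a call lost without normal 2 (edgeR adjusted p = 0.0531), on library size alone and in the unfiltered FPKM fit. Eif2ak1, the heme-sensing kinase, was lower at -0.33 (edgeR adjusted p = 0.00375), and so was Ppp1r15b, the targeting subunit of the eIF2 phosphatase, at -0.21.

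Of 10 genes that control the cap complex, 3 were higher and 2 lower. Mtor, the kinase above the eIF4E-binding proteins, rose from 121, 116 and 113 CPM to 146, 166 and 168 CPM (log2 0.46, SE 0.0686, edgeR adjusted p = 3.18e-05). Larp1, which binds mRNAs that open on a pyrimidine run, rose by 0.28 on the log2 scale (edgeR adjusted p = 0.000710), a call lost on library size alone. Akt1s1 was the other higher gene, at 0.24. Pdcd4, an inhibitor of the eIF4A helicase, was lower at -0.29 (edgeR adjusted p = 0.00388), as was Rps6kb1, a kinase downstream of mTOR, at -0.30.

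Poly(A)-binding proteins, which bind the mRNA tail and touch eIF4G, had 2 members that changed more, on the log2 scale, than any of the 55 tested factors. Pabpc1 rose from 462, 456 and 453 CPM to 738, 761 and 753 CPM (log2 0.71, SE 0.0528, edgeR adjusted p = 1.92e-09). Pabpc4 rose from 47.3, 48.0 and 45.6 CPM to 83.6, 81.3 and 75.1 CPM (log2 0.77, SE 0.0768, edgeR adjusted p = 1.57e-07). The 3 genes of poly(A)-binding protein partners, Paip1, Paip2 and Paip2b, did not pass, with log2 values from -0.22 to -0.13.

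Of 9 tested initiation helpers 0 were higher and 2 lower. Ddx3x, a helicase of structured leaders, fell from 208, 207 and 190 CPM to 160, 145 and 164 CPM (log2 -0.37, SE 0.0655, edgeR adjusted p = 0.000181). Denr, a reinitiation factor, was lower at -0.52 (edgeR adjusted p = 0.00380).

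Termination and rescue factors gave 3 higher and 1 lower gene of 7 tested. Gspt2, a copy of the release factor eRF3, had 1, 2 and 2 reads in normal regions and 15, 19 and 16 reads in lesions (edgeR adjusted p = 5.97e-05), or 0.245 ± 0.0814 and 2.38 ± 0.264 CPM (SD, n = 3). Its sister Gspt1 held 97.3 to 105 CPM in normal regions and did not pass. Pelo and Gtpbp2 were higher at 0.41 and 0.35, the call of Gtpbp2 being lost without normal 2 (edgeR adjusted p = 0.0521) and on library size alone. Hbs1l, the partner of Pelo in freeing stalled ribosomes, was lower at -0.44 (edgeR adjusted p = 0.000280).

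None of the 8 tested enzymes that build hypusine on eIF5A or diphthamide on eEF2 passed. Dph1, the gene of this list with the highest mean CPM over all 6 libraries, had a log2 value of 0.28 (edgeR adjusted p = 0.198). In the mitochondrion, which has its own factors, 3 of 10 were lower (30%, against 18.4% of all tested genes) and 0 higher. Gfm1, the mitochondrial translocase, fell from 72.1, 79.0 and 81.2 CPM to 53.3, 51.5 and 60.3 CPM (log2 -0.49, SE 0.0816, edgeR adjusted p = 8.51e-05), while its cytoplasmic counterpart Eef2 rose. Guf1 was lower at -0.63 and Mtif3 at -0.47 (edgeR adjusted p = 0.00705 and 0.0160). The call of Mtif3 was lost without normal 3, without lesion 2 and with DESeq2 (adjusted p = 0.0759), and those of Mtif3 and Guf1 in the unfiltered FPKM fit.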

How the data were processed

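RNA was depleted of ribosomal RNA and made into libraries without named molecular identifiers, per the labels' protocols, so counts are of reads. The submitters' processing notes name mm10 as the genome build and, without roles, STAR 2.5.2b, cutadapt 1.18, DESeq2 1.24.0 and CASAVA 1.8. How reads were counted, on which annotation and with what use of strand is not given in the sources used here. The authors deposited whole-number counts and FPKM values per gene and library. They also deposited a comparison table, with log2 fold changes, a test score and p-values, of which the adjusted p-values are cited here for the members.

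Counts were tested with edgeR 4.0.16 in R 4.3.3. Genes kept by its expression filter, 12506 in all, were fitted on sizes from the trimmed mean of M values, with robust quasi-likelihood and the group as the only term. Standard errors are log2 fold change over the root of F. The threshold was an adjusted p of 0.05. CPM uses the scaled library sizes, and FPKM was used to compare genes with each other. The fit was tested on simulated data. A library's count of 0 allows up to 3 counts, or 0.420 to 0.453 CPM, for counting error only.

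The members, the lists and the rule for named genes were chosen with earlier results of these data known. All members are named, and values in every library go to the up to 4 passing members of each factor group with the lowest p and to the member with the highest FPKM. A few others that did not pass were chosen after their values were seen. From each other list the rule takes up to 3 passing genes with the lowest p, or the gene with the highest CPM. Passing genes of the lists beyond that rule are given with their log2 values. Nat1 was listed among the initiation helpers and was under the filter. Each comparison uses all 6 libraries, 3 a group. Same-numbered libraries of the groups did not deviate together (correlations of -0.02 to 0.01), so replicate numbers were not taken as pairs. All pairs of replicate libraries differed beyond counting noise, but not equally. The chi-square per degree of freedom was 1.36 between normal 2 and 3, and 2.99 and 3.19 between each and normal 1. Between lesion 1 and 2 it was 1.54, and 10.3 and 10.4 between each and lesion 3. Whether the closer libraries share a mouse was not tested. Alternatives used other scalings, filters and tools (DESeq2 1.42.0, limma 3.58.1 on counts and on log2 FPKM), a replicate block, summed libraries, and each library left out. Sequences and coordinates are from RefSeq for GRCm38.p6, the assembly behind mm10.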

Additional observations from a re-analysis of the deposited data

How the results depend on the processing

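With 20 alternative settings a factor, 17 of the 17 passing factors kept their direction in every setting and 12 also kept their call. The calls of Eif4a2 (adjusted p = 0.0617 with limma on unfiltered log2 FPKM, 0.0533 with the closest libraries summed) and Eif5 (0.0558 with the former) were lost in those settings, and Eef1b2, Eif4b and Eef1g as given above. Another 15 factors passed in at least 1 setting. Library size alone gave 13 lower factors, 1474 higher and 3615 lower genes. Unfiltered log2 FPKM gave 3 lower factors, and a threshold of 0.01 gave 1548 higher genes. The median log2 fold change on library size alone was -0.136 for all genes, -0.0425 for all factors, -0.0956 for start codon factors, -0.11 for eIF2, 0.0055 for eIF3, -0.0553 for eIF4, 0.0884 for eIF4E-binding proteins, -0.2 for eIF5, eIF5A, eIF5B and eIF6, and 0.0587 for eEF1 and eEF2. Without a count filter it was -0.00524 for all genes and 0.0881 for eIF5, eIF5A, eIF5B and eIF6, where the barely counted Eif5a2 then enters. Upper-quartile scaling and the closest libraries summed moved the median of all genes to 0.00764 and 0.00765. The median of all factors was 0.0842 with those libraries summed, and 0.0855 with limma on log2 FPKM or 0.0839 unfiltered. Leaving out each library in turn gave 10 to 18 higher and 5 to 10 lower factors, 1791 to 2798 higher and 1800 to 2796 lower genes, and medians of -0.00174 to 0.00494 for all genes, 0.0812 to 0.119 for all factors, -0.0486 to 0.0724 for eIF2, 0.098 to 0.213 for eIF3, 0.0205 to 0.134 for eIF4, -0.00194 to 0.136 for start codon factors, 0.188 to 0.241 for eIF4E-binding proteins, -0.111 to 0.00166 for eIF5 to eIF6, 0.168 to 0.254 for eEF1 and eEF2 and 0.107 to 0.193 for the modifying enzymes, whose set of tested genes differs between those fits. With the replicate number as a block, 12 factors were higher and 5 lower, and 2293 genes were higher and 2233 lower. The cause of the other shifts was not tested. Depth limits the statements on genes with few reads, such as Eef1akmt3 and Eif5a2.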
